A study of Mus musculus with 12 samples.

Results

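The 10 genes described here encode core and accessory subunits of the Polycomb repressive complexes: Ezh2, Ezh1, Eed, Suz12 and Jarid2 of PRC2, and Rnf2, Ring1, Bmi1, Cbx7 and Cbx8 of PRC1. They were taken by symbol from a table of 55450 genes, and all 10 were found and passed the filter on low counts that left 14346 genes for testing. RNA came from donor-derived marrow progenitors, negative for lineage markers and positive for the stem cell factor receptor Kit, that were sorted from mice carrying competitive marrow grafts. The 12 libraries, made from total RNA after removal of ribosomal RNA, carry 4 genotype labels with 3 libraries each: wild type (WT), Tet2 knockout (Tet2KO), Id1 knockout (Id1KO) and the double knockout (dKO). Tet2 encodes a dioxygenase that oxidises methylated cytosine in DNA, and Id1 encodes an inhibitor that keeps basic helix-loop-helix proteins off DNA. The labels do not give the alleles, the age of the mice or a treatment other than the transplantation. Titles give the 3 libraries of a genotype 1 sample number, so they may be repeats of 1 cell sample. P-values then measure only the spread between these libraries, and a difference between genotypes and a difference between cell samples cannot be told apart.

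The counts of both targeted genes went against the labels. Tet2 stood at 97.6 to 102 CPM (counts relative to library size, after TMM scaling) across the libraries labelled WT, 127 to 132 across Tet2KO, 90.3 to 93.3 across Id1KO and 115 to 121 across dKO. Id1 stood at 1.24 to 1.76 CPM across WT, 3.61 to 4.35 across Tet2KO, 3.69 to 4.35 across Id1KO and 3.35 to 4.25 across dKO. Neither gene was lower in libraries labelled null for it than in WT: the log2 fold change of Tet2 in Tet2KO against WT was 0.39 ± 0.031 (SE; edgeR adjusted p = 7.99e-09), and that of Id1 in Id1KO against WT was 1.43 ± 0.17 (adjusted p = 8.11e-06). A count over a whole gene does not show the loss of 1 exon. Genotype names below are therefore the labels of the libraries, and each direction is between libraries so labelled. Totals ran from 15706407 to 19959183 estimated counts per library. Kit, Ptprc, Cd34 and Myb were high in every library (206 to 900 CPM), while 4 of 8 lineage markers, Ly6g, Ms4a1, Cd3e and Cd8a, had at most 3 counts in any library. Of the others, Itgam, a myeloid integrin, stood at 24 to 35.9 CPM.

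PRC2 places methyl groups on lysine 27 of histone H3 (H3K27) through Ezh2, or through Ezh1, its less active paralog. Eed binds the finished mark and stimulates the enzyme, Suz12 holds the complex together, and Jarid2 is an accessory subunit that helps to recruit it. PRC1 places ubiquitin on histone H2A through Rnf2 (Ring1b) or Ring1. Bmi1 is 1 of the PCGF proteins that pair with these ligases, and Cbx7 and Cbx8 are chromodomain subunits that read the PRC2 mark. In blood, Bmi1 is required for self-renewal of stem cells, and Ezh2 is mutated in myeloid and lymphoid cancers.

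The promoters of 4 members are shown. They are Ezh2, Bmi1 and Cbx8, each with a difference below that held without any 1 library, and Suz12, the 1 member with an E2F-type motif. Bmi1 and Cbx8 hold a CACGTG E-box but no CAGCTG or CAGGTG, Suz12 holds an E2F-type TTCCCGC, and Ezh2 holds none of the motifs searched. E-boxes are sites of basic helix-loop-helix proteins, and which of these proteins would read a given form was not tested. Each line gives the 250 bases before the start site, 5′ to 3′ on the gene's strand, from RefSeq on GRCm38.p6, with the matched motif in capitals.
Bmi1 (chr2:18676768-18677017, + strand): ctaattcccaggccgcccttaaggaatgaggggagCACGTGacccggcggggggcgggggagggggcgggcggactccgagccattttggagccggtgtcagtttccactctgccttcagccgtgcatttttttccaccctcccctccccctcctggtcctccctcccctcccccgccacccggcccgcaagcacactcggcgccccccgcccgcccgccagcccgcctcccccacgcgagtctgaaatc
Cbx8 (chr11:119040914-119041163, - strand): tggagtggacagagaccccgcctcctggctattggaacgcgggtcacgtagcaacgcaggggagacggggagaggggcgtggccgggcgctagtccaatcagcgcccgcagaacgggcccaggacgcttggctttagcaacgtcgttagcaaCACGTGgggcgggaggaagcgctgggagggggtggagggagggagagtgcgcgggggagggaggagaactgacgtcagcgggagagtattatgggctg
Suz12 (chr11:79992856-79993105, + strand): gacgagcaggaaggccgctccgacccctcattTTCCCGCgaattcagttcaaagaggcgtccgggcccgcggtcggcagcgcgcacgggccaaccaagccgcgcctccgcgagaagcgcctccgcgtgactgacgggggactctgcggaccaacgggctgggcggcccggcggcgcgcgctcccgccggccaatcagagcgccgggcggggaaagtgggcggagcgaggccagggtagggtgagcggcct
Ezh2 (chr6:47595031-47595280, - strand): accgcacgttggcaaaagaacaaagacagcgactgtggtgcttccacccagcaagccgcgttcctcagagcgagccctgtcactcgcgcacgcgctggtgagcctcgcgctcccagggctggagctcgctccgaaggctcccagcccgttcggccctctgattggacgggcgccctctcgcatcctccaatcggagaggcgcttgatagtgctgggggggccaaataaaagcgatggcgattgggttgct
All 10 members matched a RefSeq entry, with 11 start sites, since Jarid2 has 2. Motifs were searched on both strands. The E-boxes were CAGCTG, with the closely related sequence CAGGTG, and the palindrome CACGTG. The E2F-type motifs were the form TTCCCGC, with the further variant form TTGGCGC. No match overlapped another. The CACGTG of Bmi1 lies 215 to 210 bases before the start, that of Cbx8 98 to 93 bases, and the TTCCCGC of Suz12 218 to 212 bases. CACGTG occurs in 6% of the 32851 promoters of the same length in the table, TTCCCGC in 3.8%, CAGCTG in 13% and CAGGTG in 17.2%. Ezh1 holds 2 CAGGTG, and Ring1, Cbx7 and the second start of Jarid2 hold 1 CAGCTG each. Thus 6 of 11 start sites hold any of the 3 E-boxes, beside 32% of all promoters. The start sites of the members hold 12 to 37 CG dinucleotides in the 250 bases, beside a median of 6 over all promoters. The 2 sets thus differ in base content, which the 32% does not take into account. A match is a stretch of letters and not a measured binding site, and a link of any match to the Id1 label was not tested.

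Per exonic length, Suz12 was the most abundant member, and the 2 Cbx genes were the least. Averaged over the 12 libraries, Suz12 stood at 36.2 CPM per kb of exon, Ezh2 at 16, Eed at 15.6, Rnf2 at 13.1, Bmi1 at 12.9, Jarid2 at 8.78, Ring1 at 7.67, Ezh1 at 4.79, Cbx8 at 3.35 and Cbx7 at 1.73. The ranges of Ezh2 and Eed, of Eed and Rnf2 and of Rnf2 and Bmi1 overlapped. Eed exceeded Rnf2 in every library all the same. Ezh2 and Eed changed order between libraries, as did Rnf2 and Bmi1, so neither of these pairs can be ordered. Within the paralog pairs, Ezh2 exceeded Ezh1, Rnf2 exceeded Ring1 and Cbx8 exceeded Cbx7 in every library. The ratio of Ezh1 to Ezh2 per kb was 0.318 ± 0.0048 across WT, 0.33 ± 0.02 across Tet2KO, 0.282 ± 0.012 across Id1KO and 0.272 ± 0.0082 across dKO (SD, n = 3). All 6 libraries labelled Id1KO or dKO had a lower ratio (0.265 to 0.291) than all 6 labelled WT or Tet2KO (0.314 to 0.353). The ratio of Cbx7 to Cbx8 was 0.632 to 0.672 in WT and lower in every other library, at 0.412 to 0.493 across Tet2KO, 0.487 to 0.589 across Id1KO and 0.409 to 0.579 across dKO. That of Ring1 to Rnf2 was 0.643 ± 0.034 across WT, 0.585 ± 0.039 across Tet2KO, 0.549 ± 0.065 across Id1KO and 0.584 ± 0.088 across dKO, with overlap between each pair of genotypes. These ratios are descriptions without a test.

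**Figure D1:**
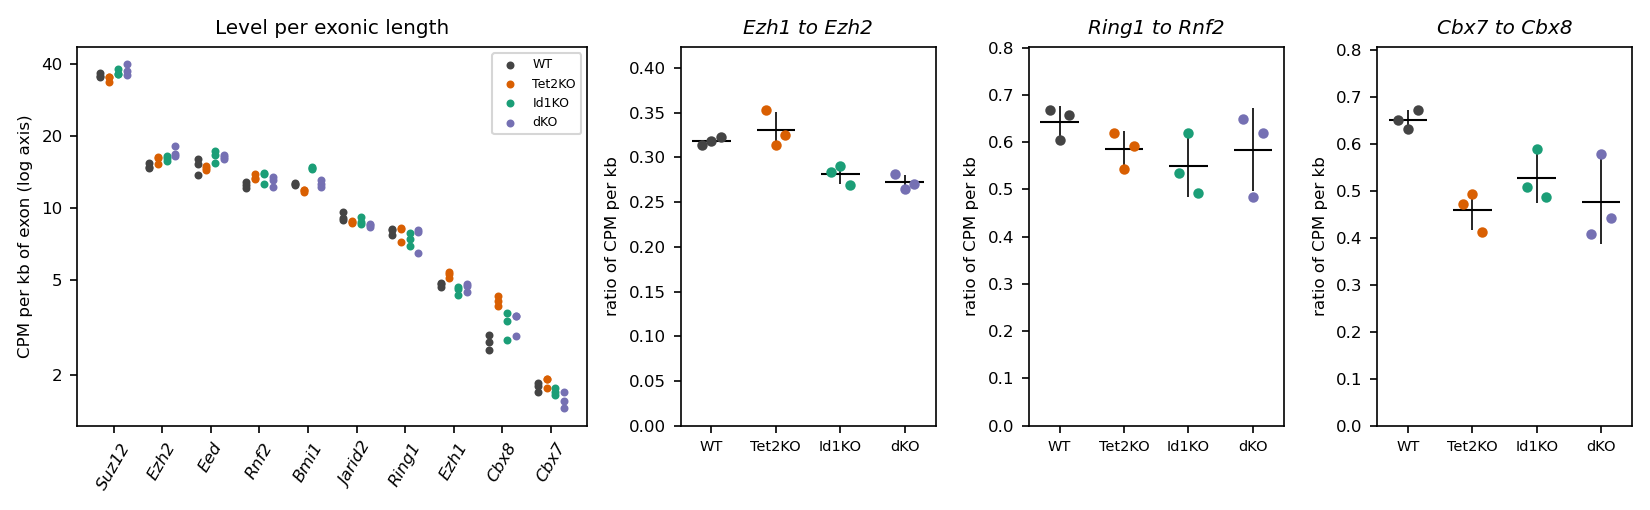
Left, level of each member per kb of exon (CPM per kb, log axis) with 1 point per library, coloured by genotype label; right, 3 panels with the ratio of paralogs per kb, 1 point per library, the mean as a line and the SD as a bar (n = 3). The order runs from Suz12 at 36.2 to Cbx7 at 1.73 CPM per kb, and the ratio of Ezh1 to Ezh2 is 0.265 to 0.291 in the libraries labelled Id1KO or dKO and 0.314 to 0.353 in the others.

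Changes in the members were small, and few passed the test in any comparison except dKO against Tet2KO. A gene is called where edgeR's quasi-likelihood F-test, two-sided and adjusted over all 14346 genes, gave an adjusted p under 0.05. In Tet2KO against WT, 2 of 10 members were called, Cbx8 and Ezh1, both higher, while 32.8% of all genes were called, 16.6% higher and 16.2% lower. In Id1KO against WT, 1 member was called, Bmi1, which was higher, beside 15% of all genes, 7.26% higher and 7.77% lower. In dKO against WT, Ezh2 was higher and Jarid2 lower, 2 of 10, beside 19.2% of all genes, 10.2% higher and 8.97% lower. In dKO against Tet2KO, 6 of 10 were called, with Ezh2, Eed and Suz12 higher and Ezh1, Cbx7 and Cbx8 lower, beside 26.4% of all genes, 13.1% higher and 13.4% lower. In dKO against Id1KO, Bmi1 alone was called and was lower, beside 19.3% of all genes, 10.6% higher and 8.7% lower. In the interaction, the change from Tet2KO to dKO minus that from WT to Id1KO, Cbx8 alone was called and was lower, beside 14.5% of all genes, 7.46% higher and 7.03% lower. The members' share was below that of all genes in Tet2KO against WT, near it in dKO against WT, and above it in dKO against Tet2KO. Their median log2 fold changes lay between -0.05 and 0.07, and those of all genes tested between -0.01 and 0.01. These comparisons share libraries, so their counts are not independent of each other. In bulk libraries, fewer cells of a type and less RNA per cell cannot be told apart.

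The count of 6 in dKO against Tet2KO depended on single libraries and on the tool. It fell to 1 without Tet2KO replicate 1, to 2 without dKO replicate 2 and to 3 without dKO replicate 3, and DESeq2 called 1 member, Suz12. With the 3 libraries of each genotype summed, which leaves 4 samples and the additive effects of the 2 labels, no member was called in any of the 4 comparisons this covers, and 1 or 2 members had an unadjusted p under 0.05.

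**Figure D2:**
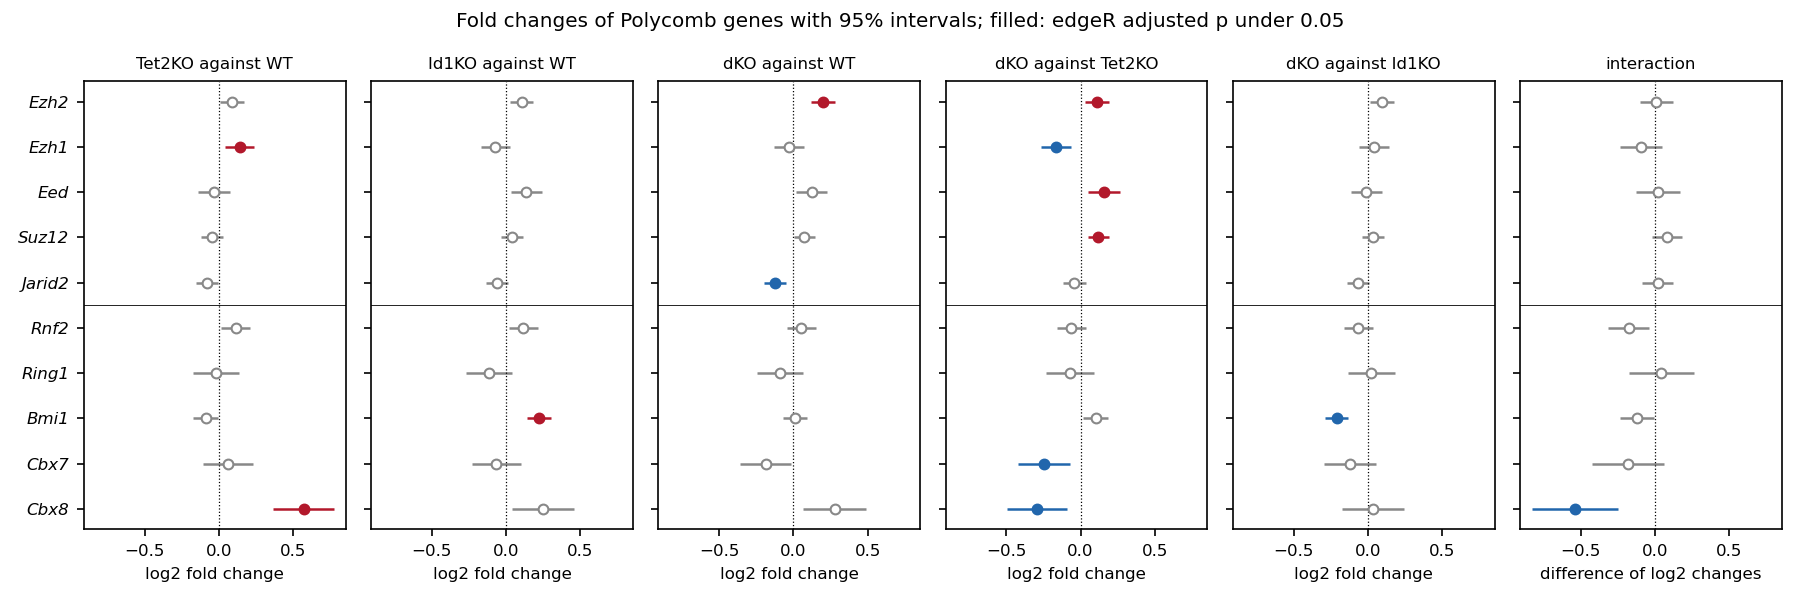
Log2 fold change of each member in the 6 comparisons (points, with 95% intervals from edgeR; for the interaction, the difference of 2 log2 changes); filled points have an adjusted p under 0.05. Cbx8 in Tet2KO against WT lies farthest from 0, at 0.57, and the interval of Bmi1 lies on opposite sides of 0 in Id1KO against WT (0.22) and in dKO against Id1KO (-0.21).

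Of the PRC2 genes, Ezh2, the main methyltransferase (ENSMUSG00000029687.16, chromosome 6, 47530139 to 47595341, - strand, 21 merged exons), was highest in the libraries labelled dKO. Its level was 103, 97.5 and 98.9 CPM in WT, 101, 108 and 108 in Tet2KO, 109, 105 and 107 in Id1KO, and 112, 121 and 110 in dKO. All dKO libraries lay above all others, and the Id1KO libraries lay above WT without overlap. The log2 fold change in dKO against WT was 0.2 ± 0.038 (SE), a fold of 1.15 (adjusted p = 0.000796), and the call held without each of the 12 libraries in turn (0.16 to 0.23) and in DESeq2. Against Tet2KO, dKO gave 0.11 ± 0.038 (adjusted p = 0.0358). That call was lost without Tet2KO replicate 1 (log2 0.08, adjusted p = 0.174) or dKO replicate 2 (0.07, 0.211), in DESeq2 (adjusted p = 0.0781), with upper-quartile scaling (0.0508) and with only the libraries compared (0.0541). Against WT, the change was 0.09 ± 0.038 in Tet2KO (adjusted p = 0.0846) and 0.1 ± 0.038 in Id1KO (0.0697), neither of which passed. The interaction of Ezh2 was 0.01 with a 95% interval of -0.1 to 0.12.

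Ezh1, the paralog of Ezh2 that prevails in resting cells (ENSMUSG00000006920.14, chromosome 11, 101191115 to 101226463, - strand), was highest in the libraries labelled Tet2KO. Its level was 35.9, 34.5 and 35.6 CPM in WT, 39.8, 37.8 and 39.2 in Tet2KO, 34.6, 34 and 32.2 in Id1KO, and 35.1, 35.7 and 33.1 in dKO. The Tet2KO libraries did not overlap any other, while the other 3 genotypes overlapped each other. The log2 fold change was 0.14 ± 0.047 in Tet2KO against WT (adjusted p = 0.0276) and -0.17 ± 0.048 in dKO against Tet2KO (0.0139), 2 comparisons that share the Tet2KO libraries. The first was lost without WT replicate 2 (adjusted p = 0.0873), WT replicate 3 (0.0508), Tet2KO replicate 1 (0.0975) or Tet2KO replicate 3 (0.0709), in DESeq2 (0.14) and without the filter on low counts (0.0927). The second was lost without Tet2KO replicate 1 (0.0581) or dKO replicate 3 (0.0776) and in DESeq2 (0.0777).

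Eed, the subunit that reads the methyl mark (ENSMUSG00000030619.9, chromosome 7, 89954654 to 89980983, - strand), stood at 61, 52.5 and 58 CPM in WT, 54.8, 55.8 and 57 in Tet2KO, 63.6, 58.9 and 66 in Id1KO, and 61.2, 62.1 and 63.4 in dKO. The dKO libraries lay above Tet2KO and just above the highest WT library, while Id1KO overlapped both WT and dKO. Eed rose by 0.16 ± 0.051 on the log2 scale in dKO against Tet2KO (adjusted p = 0.0294). The call was lost without Tet2KO replicate 1 (0.0947), Tet2KO replicate 2 (0.0744), dKO replicate 2 (0.0574) or dKO replicate 3 (0.0967), and in DESeq2 (0.0598). Its exons share 261 bp with an antisense transcript, E230029C05Rik, which had 7 to 25 counts beside 894 to 1199 for Eed.

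Suz12, the scaffold of PRC2 (ENSMUSG00000017548.15, chromosome 11, 79993106 to 80034123, + strand), stood at 180, 174 and 176 CPM in WT, 174, 174 and 166 in Tet2KO, 180, 178 and 188 in Id1KO, and 178, 197 and 184 in dKO. The spread in dKO was the widest, and its lowest library stood within the WT range but above Tet2KO. Suz12 rose by 0.12 ± 0.035 on the log2 scale in dKO against Tet2KO (edgeR adjusted p = 0.0145, DESeq2 adjusted p = 0.0186). The edgeR call was lost without Tet2KO replicate 3 (0.0939) or without dKO replicate 2, where the log2 fold change was 0.08 (0.0925).

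Jarid2, the accessory subunit (ENSMUSG00000038518.15, chromosome 13, 44729474 to 44921643, + strand), stood at 93.2, 86.5 and 88.1 CPM in WT, 84.4, 85.4 and 83.4 in Tet2KO, 83.1, 89.1 and 84.7 in Id1KO, and 82.3, 80.3 and 83.1 in dKO. Both groups labelled null for Tet2 lay below WT without overlap, and Id1KO overlapped WT. The fold in dKO against WT was 0.917, a log2 fold change of -0.12 ± 0.036 (adjusted p = 0.0194). It was lost without WT replicate 1 (-0.09, adjusted p = 0.111) or dKO replicate 2 (0.0721), and in DESeq2 (0.0853). In Tet2KO against WT it was -0.08 ± 0.036 (adjusted p = 0.0868), which did not pass.

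Levels of cell cycle and erythroid marker genes also differed between genotype labels. In dKO against Tet2KO, where Ezh2, Eed and Suz12 rose, 13.1% of all genes were higher. Of 18 genes of the G2 and M phases 15 were higher there. Their summed level was 3323 to 3353 CPM in Tet2KO and 3581 to 3691 in dKO. Of 18 S phase genes 7 were higher, with sums of 4621 to 4679 in Tet2KO and 4842 to 4938 in dKO. Of 13 erythroid genes 12 were higher, with sums of 955.5 to 966.5 and 1596 to 1612 CPM. In dKO against WT, 10.2% of all genes were higher. Of the G2 and M phase genes 17 of 18 were higher (3209 to 3253 CPM in WT). Of S phase genes 2 of 18 were higher, and of erythroid genes 5 of 13 were higher and 1 lower. The erythroid sums overlapped, at 1589 to 1637 CPM in WT and 1596 to 1612 in dKO. In Id1KO against WT, 12 of 18 G2 and M phase genes were higher, beside 7.26% of all genes. Their sum in Id1KO was 3424 to 3517 CPM. Of S phase genes 3 were higher and 6 lower, beside 7.77% of all genes lower. No PRC2 member was called there, though Ezh2 (0.1, edgeR adjusted p = 0.0697) and Eed (0.14, 0.0724) had positive log2 fold changes. By genotype, G2 and M phase sums rose from WT through Tet2KO and Id1KO to dKO. Ezh2 means had the same order, at 99.7, 106, 107 and 114 CPM, while those of Eed and Suz12 were lowest in Tet2KO. The part of these markers in the PRC2 values was not tested.

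**Figure D3:**
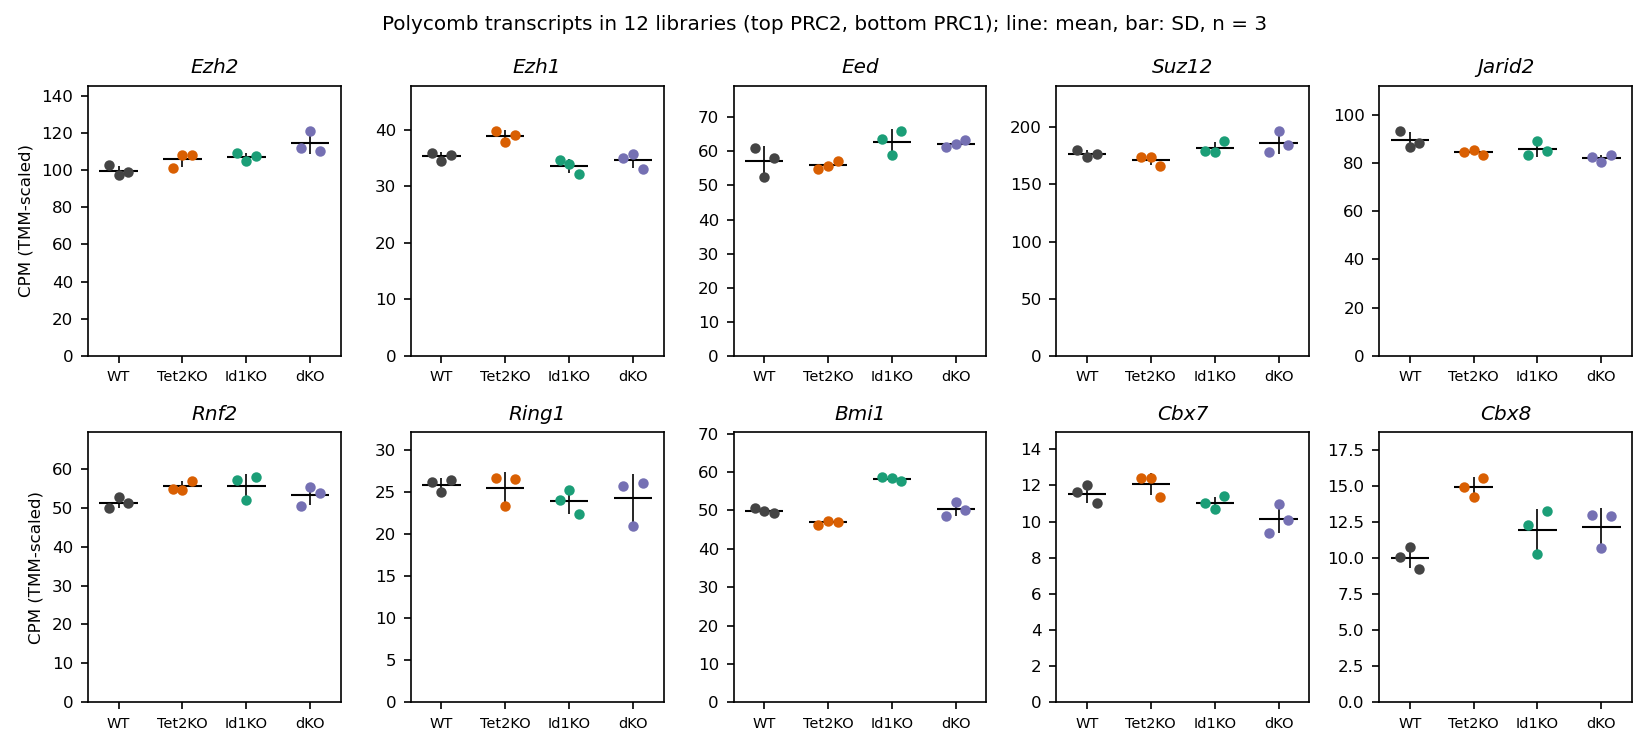
Level of each of the 10 members in CPM (vertical axes from 0) in the 12 libraries, 3 per genotype label, with the mean as a line and the SD as a bar. Bmi1 is 57.6 to 58.6 in the libraries labelled Id1KO and 46.2 to 52.1 in the other 9, and Cbx8 is 14.2 to 15.6 in Tet2KO and 9.29 to 13.3 in the others.

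Among the PRC1 genes, Bmi1, the PCGF partner of the ligases (ENSMUSG00000026739.13, chromosome 2, 18677018 to 18686629, + strand, 14 merged exons), was higher in the libraries labelled Id1KO than in all others. Its level was 50.5, 49.8 and 49.2 CPM in WT, 46.2, 47.3 and 47.1 in Tet2KO, 58.6, 58.4 and 57.6 in Id1KO, and 48.6, 52.1 and 50.1 in dKO. No Id1KO library overlapped another genotype, and dKO spanned the WT range. In Id1KO against WT the fold was 1.17, a log2 fold change of 0.22 ± 0.038 (edgeR adjusted p = 0.000397, DESeq2 adjusted p = 0.00187). In dKO against Id1KO the fold was 0.864, a log2 fold change of -0.21 ± 0.039 (adjusted p = 0.000511, DESeq2 0.00359). Both calls held without each of the 12 libraries in turn (0.22 to 0.24 and -0.24 to -0.19), and they share the Id1KO libraries. The interaction, which tests whether the step from Tet2KO to dKO differs from that from WT to Id1KO, was -0.12 ± 0.055 and did not pass (adjusted p = 0.151). A processed copy, Gm5946, shares 97% identity with Bmi1 over 2658 bp and had at most 2.01 counts, beside 754 to 1122 for Bmi1. Summed megakaryocyte markers were also highest in Id1KO, at 223.9 to 237.3 CPM beside 157.8 to 164.2 in WT and 163.2 to 179.7 in dKO, and mast cell, basophil and eosinophil markers stood at 562.7 to 567.3, 458.1 to 466.4 and 370.5 to 377.3 CPM in Id1KO, WT and dKO. Their part in the Bmi1 values was not tested.

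Cbx8, a reader of the PRC2 mark (ENSMUSG00000025578.9, chromosome 11, 119036305 to 119040969, - strand, 4 merged exons), showed the widest difference of the 10. Its level was 10.1, 10.8 and 9.29 CPM in WT, 15, 14.2 and 15.6 in Tet2KO, 12.3, 10.3 and 13.3 in Id1KO, and 13, 10.7 and 12.9 in dKO, from 172 to 290 counts per library. The Tet2KO libraries lay above all others, while Id1KO and dKO overlapped each other and each had 1 library within the WT range. In Tet2KO against WT the fold was 1.49, a log2 fold change of 0.57 ± 0.098 (edgeR adjusted p = 0.000144, DESeq2 adjusted p = 8.92e-05). It held without each library in turn (0.52 to 0.63). In dKO against Id1KO, the same Tet2 contrast between libraries that both carry the Id1 null label, it was 0.03 ± 0.099 with a 95% interval of -0.18 to 0.24. The interaction was -0.54 ± 0.14 (adjusted p = 0.0128, DESeq2 0.0305) and held without each library in turn (-0.64 to -0.46). Its log2 fold change in dKO against Tet2KO was -0.29 ± 0.097 (adjusted p = 0.0314), lost without Tet2KO replicate 1 (0.069), Tet2KO replicate 3 (0.107) or dKO replicate 2 (0.147), and in DESeq2 (0.0847). Against WT, dKO gave 0.28 ± 0.1 (adjusted p = 0.0604), and passed without Id1KO replicate 2 (0.0388), Id1KO replicate 3 (0.0474) or dKO replicate 2 (0.02) and without the filter on low counts (0.0471). Erythroid markers summed to 955.5 to 966.5 CPM in Tet2KO, below WT (1589 to 1637), Id1KO (1774 to 1809) and dKO (1596 to 1612). Of their 13 genes 11 had a positive interaction that passed, beside 7.46% of all genes. Neutrophil granule genes summed to 15540 to 15780 CPM in Tet2KO and to 11640 to 14130 elsewhere. Of the 9 tested, 5 were higher and 2 lower in Tet2KO against WT, beside 16.6% and 16.2% of all genes. Their part in the Cbx8 values was not tested.

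Cbx7, the other chromodomain reader among the members (ENSMUSG00000053411.16, chromosome 15, 79915807 to 79971119, - strand), stood at 11.6, 12 and 11 CPM in WT, 12.4, 12.4 and 11.4 in Tet2KO, 11, 10.7 and 11.4 in Id1KO, and 9.38, 11 and 10.1 in dKO. The dKO libraries were below every Tet2KO and WT library and overlapped Id1KO. Cbx7 gave -0.25 ± 0.083 on the log2 scale in dKO against Tet2KO (adjusted p = 0.0341). The call was lost without Tet2KO replicate 1 (0.101), Tet2KO replicate 2 (0.0964), dKO replicate 1 (0.131) or dKO replicate 3 (0.078), in DESeq2 (0.156), with only the libraries compared (0.0547) and without the filter (0.0692). Cbx7 had 148 to 233 counts per library, and its exons share 100 bp with Apobec3 on the opposite strand, which had 2037 to 2316. The strand setting of the counting is not given in the sources used here, so reads of the shared stretch cannot be told apart. Apobec3 was 0.1 ± 0.03 higher on the log2 scale in dKO against Tet2KO (adjusted p = 0.0197), the opposite direction.

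The ligases Rnf2 and Ring1 passed in no comparison. Rnf2 (ENSMUSG00000026484.13, chromosome 1, 151458004 to 151500955, - strand) stood at 49.9, 52.6 and 51.3 CPM in WT, 54.8, 54.6 and 56.9 in Tet2KO, 57.1, 51.9 and 57.7 in Id1KO, and 50.4, 55.3 and 53.7 in dKO. The Tet2KO libraries lay above WT without overlap, with a log2 fold change of 0.11 ± 0.047 (adjusted p = 0.0668), which passed without Id1KO replicate 2 (0.048), dKO replicate 1 (0.0446) or dKO replicate 2 (0.045) and with only the libraries compared (0.0329). Its interaction was -0.18 ± 0.066 (adjusted p = 0.0787) and passed without Id1KO replicate 2 (0.0246) or dKO replicate 2 (0.0387). Its exons share 158 bp with Trmt1l on the opposite strand, which had 671 to 888 counts beside 795 to 1057 for Rnf2, and whose interaction was -0.22 ± 0.067 (adjusted p = 0.033). Ring1 (ENSMUSG00000024325.8, chromosome 17, 34020792 to 34024680, - strand) stood at 26.2, 25 and 26.5 CPM in WT, 26.7, 23.3 and 26.5 in Tet2KO, 24, 25.3 and 22.3 in Id1KO, and 25.7, 21 and 26.1 in dKO. All genotypes overlapped. The 95% interval of its log2 fold change was -0.17 to 0.13 in Tet2KO against WT, -0.27 to 0.04 in Id1KO against WT and -0.25 to 0.07 in dKO against WT.

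A wider list of 45 Polycomb genes outside the 10 members held accessory subunits of PRC2, other canonical and variant PRC1 subunits, the deubiquitinase complex PR-DUB that removes the PRC1 mark, and the H3K27 demethylases. Of these, 43 were tested. Asxl3 had no counts, and Ezhip was not found by symbol. In Tet2KO against WT, 18 were higher and 5 lower, 23 of 43 or more than the 32.8% of all genes, with a median log2 fold change of 0.07. The 18 were made up of 3 of 9 PRC2 accessory genes, 4 of 10 canonical PRC1 genes, 6 of 15 variant PRC1 genes, 4 of 7 PR-DUB genes and 1 of 2 demethylases. In dKO against WT 12 were higher and 3 lower, 15 of 43 beside 19.2% of all genes. The comparison of dKO with Id1KO gave 9 higher and 5 lower, 14 of 43 beside 19.3%, and that of dKO with Tet2KO gave 3 higher and 5 lower, 8 of 43 beside 26.4%. For Id1KO and WT the counts were 6 higher and 2 lower, 8 of 43 beside 15%. All 7 called in the interaction were lower, 7 of 43 beside 14.5% of all genes, of which 7.46% were higher and 7.03% lower. With summed libraries none was called in the 4 comparisons covered, though 12 had an unadjusted p under 0.05 for the Tet2 label and 1 for the Id1 label. The count in dKO against Tet2KO fell from 8 to between 3 and 5 without any 1 of the 3 Tet2KO libraries, dKO replicate 2 or dKO replicate 3, and that in dKO against Id1KO from 14 to 9 without Id1KO replicate 1 or dKO replicate 3.

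Several genes of PR-DUB and of the PRC1 complexes differed with the Tet2 label, though not all of them also between dKO and Id1KO. Mbd6, a PR-DUB subunit, stood at 18.1, 15.2 and 18.4 CPM in WT, 23, 22.3 and 24.1 in Tet2KO, 17.2, 18.8 and 15.8 in Id1KO, and 23.8, 20.5 and 21.7 in dKO. The libraries labelled null for Tet2 lay above the others without overlap. Its log2 fold change was 0.43 ± 0.079 in Tet2KO against WT (edgeR adjusted p = 0.000284) and 0.35 ± 0.08 in dKO against WT (0.00351). Mbd5, its paralog, rose by 0.43 ± 0.062 in Tet2KO against WT (2.28e-05). Fbrs, a variant PRC1 subunit, rose by 0.41 ± 0.059 in Tet2KO against WT (2.17e-05) and by 0.33 ± 0.06 in dKO against WT (0.000482). E2f6 and Pcgf6, which recruit or build a variant PRC1 at E2F and E-box sites, were lower in Tet2KO against WT, at -0.21 ± 0.048 (0.00217) and -0.27 ± 0.073 (0.00779). Pcgf6 did not pass without Tet2KO replicate 2 (0.0566). In dKO against Id1KO, Mbd6 gave 0.34 ± 0.08 (0.00423) and Mbd5 0.22 ± 0.063 (0.0175), where DESeq2 called 1 PR-DUB gene. Fbrs (0.16, adjusted p = 0.0582), E2f6 (-0.09, 0.184) and Pcgf6 (-0.15, 0.162) did not pass in that comparison. Scmh1, a canonical PRC1 subunit, stood at 14.2 ± 0.43 CPM in Id1KO and 18.5 ± 1.7 in dKO (SD, n = 3), a log2 fold change of 0.39 ± 0.08 (0.00166).

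The 2 demethylase genes showed different patterns. Kdm6b stood at 13.2, 11.2 and 10.8 CPM in WT, 14.1, 14.3 and 15.1 in Tet2KO, 10.7, 12.8 and 9.74 in Id1KO, and 14.6, 15.2 and 14.2 in dKO. All libraries labelled null for Tet2 exceeded the others, and dKO against Id1KO gave a log2 fold change of 0.4 ± 0.096 (adjusted p = 0.00494). Its rise of 0.3 in Tet2KO against WT (0.0169) was lost without WT replicate 2 (0.0639), WT replicate 3 (0.0764) or Tet2KO replicate 3 (0.0677) and in DESeq2 (0.0534). Kdm6a stood at 74.5, 78.1 and 75.7 CPM in WT, 65.9, 65.2 and 70.7 in Tet2KO, 67.5, 69.3 and 63.3 in Id1KO, and 65.6, 64.2 and 65.5 in dKO. All 9 libraries labelled null for either gene were below WT, with -0.18 in Tet2KO against WT (0.0021), -0.19 ± 0.04 in Id1KO against WT (0.00268) and -0.23 ± 0.041 in dKO against WT (0.000474).

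Further named genes of the wider list differed in comparisons that hold the Id1KO libraries, and some of them in other comparisons too. Bcor, a corepressor of variant PRC1, was lower in Id1KO against WT, at -0.19 ± 0.028 on the log2 scale (118 ± 2.7 and 135 ± 0.92 CPM; adjusted p = 8.8e-05), and at -0.11 ± 0.028 in dKO against WT (0.0103), which was lost without WT replicate 3 (0.0513) and in DESeq2 (0.0586). In dKO against Id1KO, Bcor went the other way, at 0.08 ± 0.0285 (0.0451), near the threshold of 0.05. Pcgf3, a variant PRC1 subunit, was higher than in WT in all 3 other genotypes, by 0.25 ± 0.045 in Id1KO (0.000691), 0.21 ± 0.045 in Tet2KO (0.00135) and 0.16 ± 0.046 in dKO (0.019). The last was lost without WT replicate 2 (0.0667), without the filter on low counts (0.0535) and in DESeq2 (0.115). Its interaction was -0.3 ± 0.064 (0.00336), and its value of -0.05 in dKO against Tet2KO did not pass (0.455). Phf1, a PRC2 accessory gene with 91 to 152 counts, was 0.4 ± 0.11 higher (log2) in Id1KO against WT (0.0213), and gave -0.38 ± 0.12 in dKO against Id1KO (0.0259) and -0.5 ± 0.165 in the interaction (0.048). DESeq2 called none of these 3 Phf1 differences (0.102, 0.135 and 0.177), and all 3 were lost without Id1KO replicate 1 (0.0908, 0.104 and 0.108) or Id1KO replicate 2 (0.0839, 0.0943 and 0.108). The call in Id1KO against WT was also lost without WT replicate 1 (0.0839), and that in dKO against Id1KO without dKO replicate 2 (0.0729) or dKO replicate 3 (0.0596). That in the interaction was lost in 9 of the 12 fits that left out a library (0.0544 to 0.108) and without the filter on low counts (0.0648). Rybp, which takes the place of a Cbx subunit in variant PRC1, was lower in dKO against Id1KO, both labelled null for Id1, at -0.17 ± 0.045 (0.00933). It was higher in Id1KO than in WT by 0.23 ± 0.044 (0.00141) and in Tet2KO than in WT by 0.12 ± 0.045 (0.0403). The Tet2KO value was lost in 6 of the 12 fits that left out a library (0.0501 to 0.175), without the filter on low counts (0.114) and in DESeq2 (0.154). Its interaction was -0.3 ± 0.064 (0.00351), and its value of -0.07 in dKO against Tet2KO did not pass (0.287).

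Cbx2, a further chromodomain reader, was by mean highest in Tet2KO and lowest in WT, as was Cbx8. It stood at 13.9, 16.9 and 17.8 CPM in WT, 20.7, 18.8 and 19.7 in Tet2KO, 20.2, 17.6 and 18.8 in Id1KO, and 17.4, 15.1 and 17.2 in dKO. Its interaction was -0.47 ± 0.12 (edgeR adjusted p = 0.0102, DESeq2 0.0228). In dKO against Tet2KO it was -0.25 ± 0.085 (0.0328), lost without Tet2KO replicate 1 (0.116), Tet2KO replicate 3 (0.0698) or dKO replicate 2 (0.14) and in DESeq2 (0.0831). E2f6 and L3mbtl2, both of variant PRC1, were the highest of the genes called there, at 0.14 ± 0.049 (0.045) and 0.13 ± 0.035 (0.00793). The E2f6 call was lost in 8 of the 12 fits that left out a library (0.0508 to 0.224), with upper-quartile scaling (0.0566), with only the libraries compared (0.0684) and in DESeq2 (0.116).

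**Figure D4:**
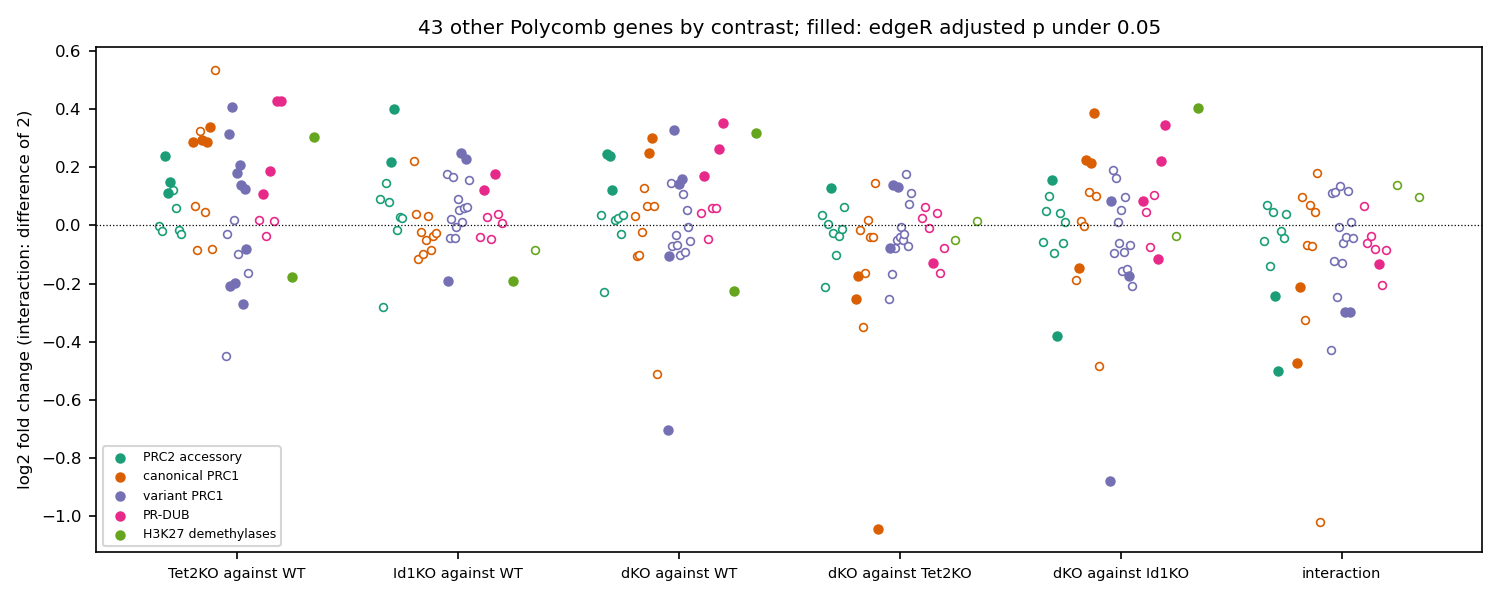
Log2 fold change of the 43 other Polycomb genes in the 6 comparisons (vertical axis; for the interaction, the difference of 2 log2 changes), 1 point per gene, coloured by complex and filled where the adjusted p was under 0.05. In Tet2KO against WT 18 filled points lie above 0 and 5 below, and in the interaction all 7 lie below 0; the lowest points are both Scml4, a gene under 5 CPM named here after its values were seen, in dKO against Tet2KO (-1.04) and in the interaction (-1.02, not filled).

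Of 12 genes listed as classical targets of Polycomb repression, 7 had enough counts to test. Cdkn2a, the cell cycle inhibitor locus that Bmi1 and Ezh2 repress, had no counts in any library, Cdkn2b and Gata4 had at most 1, Lin28b at most 2 and Igf2bp3 at most 8. In Tet2KO against WT, 3 of the 7 were higher (Hmga2, Ebf1 and Pax5) and 3 lower (Hoxa7, Hoxa9 and Hoxa10), beside 16.6% of all genes higher and 16.2% lower. In Id1KO against WT edgeR and DESeq2 called none of them, with 1 at an unadjusted p under 0.05, and the same held for the interaction. Hoxa9, a homeobox gene of stem and myeloid progenitors, stood at 23.9, 24.4 and 23 CPM in WT, 14.6, 14.6 and 12.3 in Tet2KO, 23.1, 23.6 and 23.4 in Id1KO, and 12.6, 12.3 and 12.2 in dKO. The libraries labelled null for Tet2 were below the others without overlap, with log2 fold changes of -0.78 ± 0.065 in Tet2KO against WT (adjusted p = 1.87e-08) and -0.92 ± 0.067 in dKO against Id1KO (5.06e-09). Hoxa7, its neighbour in the cluster, gave -0.47 ± 0.092 (0.000542) and -0.77 ± 0.095 (6.65e-06). Hoxa10, at 5 to 25 counts, gave -1.04 ± 0.36 in Tet2KO against WT (0.0311), lost without WT replicate 2 (0.158), WT replicate 3 (0.0747), Tet2KO replicate 1 (0.0709) or Tet2KO replicate 2 (0.125) and in DESeq2 (0.117). Igf2bp2, an RNA-binding protein gene, stood at 1.59 to 2.85 CPM over the 12 libraries and passed in no comparison. Summed stem cell markers were 91.92 to 96.62 CPM across WT, 100.8 to 107.2 across Tet2KO, 95.96 to 103.1 across Id1KO and 94.51 to 97.75 across dKO, and their part in the Hoxa values was not tested.

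Hmga2, an architectural chromatin protein of fetal stem cells, went the other way. It stood at 2.28, 2.17 and 2.38 CPM in WT, 6.56, 5.9 and 6.14 in Tet2KO, 2.47, 2.03 and 1.54 in Id1KO, and 4.44, 5.45 and 4.49 in dKO. The libraries labelled null for Tet2 lay above the others without overlap, and Tet2KO lay above dKO. Its log2 fold change was 1.45 ± 0.15 in Tet2KO against WT (adjusted p = 2.99e-07) and 1.25 ± 0.16 in dKO against Id1KO (9.41e-06). Against Tet2KO it was -0.37 ± 0.13 in dKO (0.0457), lost in 9 of the 12 fits that left out a library (0.0527 to 0.142) and in DESeq2 (0.197). The B cell factors Ebf1 and Pax5 rose in Tet2KO against WT by 0.68 ± 0.18 (0.00719) and 0.95 ± 0.26 (0.00871), at 23 to 51 and 13 to 42 counts. DESeq2 did not call Ebf1 (0.0677). In dKO against Id1KO neither passed, with 0.31 ± 0.2 for Ebf1 (0.322) and 0.56 ± 0.3 for Pax5 (0.204). Summed lymphoid markers, a list that itself holds Ebf1, were 37.88 to 42.59 CPM across WT, 45.63 to 50.09 across Tet2KO, 26.36 to 28.5 across Id1KO and 27 to 30.17 across dKO, and their part in these 2 values was not tested.

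**Figure D5:**
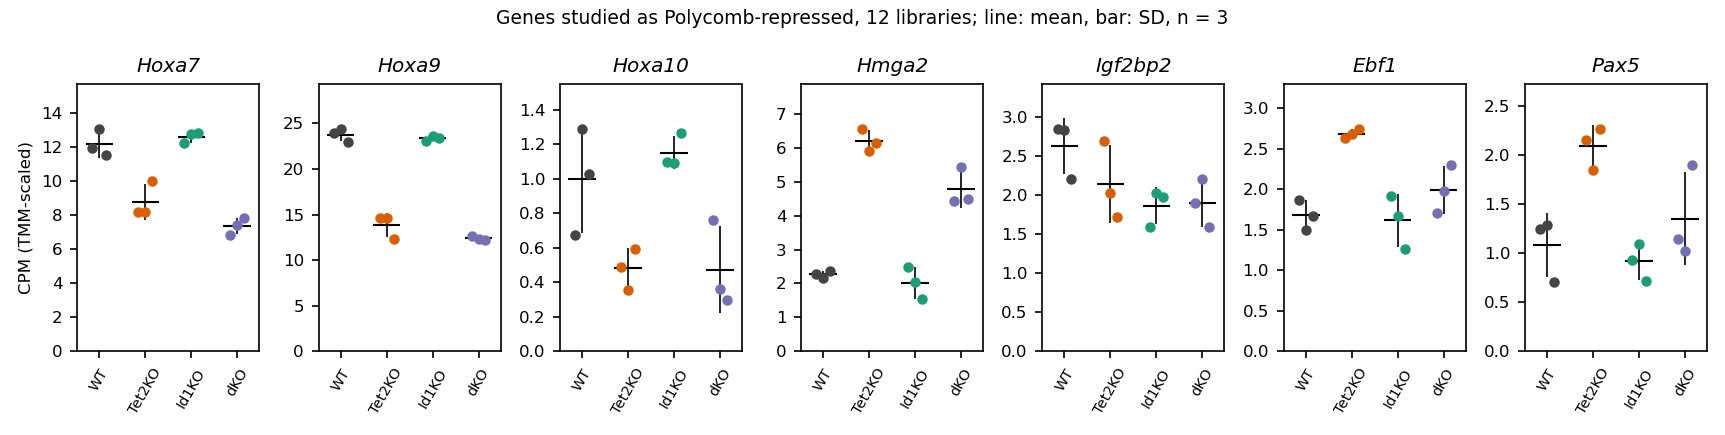
Level in CPM (vertical axes from 0) of the 7 tested genes from the list of Polycomb targets in the 12 libraries, with the mean as a line and the SD as a bar (n = 3). Hoxa9 is 12.2 to 14.6 in the 6 libraries labelled null for Tet2 and 23 to 24.4 in the other 6, and Hmga2 is 4.44 to 6.56 and 1.54 to 2.47.

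Over the 12 libraries, the genes whose log2 CPM was most like that of Ezh2, among 9831 genes with a mean of at least 5 CPM, were Qk (Pearson r = 0.954), Eif4g2 (0.943) and Tpr (0.94). Those most like Bmi1 were Pcmt1 (0.982), Prpf4b (0.979) and Selenoi (0.976). Qk, an RNA-binding protein gene, had means of 156.5 CPM over WT, 167.5 over Tet2KO, 164.2 over Id1KO and 180.3 over dKO, and so was highest in dKO like Ezh2. Prpf4b, a splicing kinase gene, had means of 218.2, 209.6, 257.3 and 223.9 CPM, highest in Id1KO like Bmi1. The libraries of a genotype may share their cell source, and each r is given without a p-value.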

How the data were processed

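Libraries of total RNA were prepared with a strand-preserving kit that removes ribosomal RNA, per the labels' protocols. The authors deposited 1 table of expected counts per gene, 5.06% of them not whole numbers, for 12 libraries and without normalization. STAR, RSEM and the build mm10 are named in the submitters' processing notes, and the strand setting of the counting is not given in the sources used here. All 55450 identifiers matched GENCODE M21 (GRCm38), which gave positions and exonic lengths.

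Counts were rounded. Genes were kept by filterByExpr (minimum count 10), TMM set the scale of each library, and 1 model over the 12 libraries, with a mean for each genotype label, was fitted in edgeR 4.0.16 (R 4.3.3, limma 3.58.1), with quasi-likelihood F-tests and Benjamini-Hochberg adjustment over 14346 genes at 0.05. Standard errors are the log2 fold change divided by the root of F. The steps were tested on simulated data with 200 genes changed. At 1.2-fold, edgeR recovered 64% of them in Tet2KO against WT and 43% in the interaction. At 2-fold it recovered 99% and 98%. A change of 1.2-fold or less can thus fail to pass. With 3 libraries a group the smallest p of an exact permutation test is 0.1, and none was used. All 12 pairs of libraries within a genotype differed by more than sampling noise (median squared difference 1.18 to 2.1 times that of sampling), so they were kept apart, although repeats of 1 cell sample can differ so too. The highest of these ratios were those of dKO replicate 2 with dKO replicate 1 (2.1) and dKO replicate 3 (1.95). That of dKO replicates 1 and 3 was 1.235.

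The members, lists and rules were chosen with earlier results of these data known. All members, Tet2 and Id1 are named, and from the wider list the 2 highest and 2 lowest genes called per comparison with a mean of at least 5 CPM, of which 1 gene is not reported here. From the Polycomb targets those with at least 10 counts in a library are named, and for Ezh2 and Bmi1 the 3 genes most alike in log2 CPM. Genes with near-identical copies were sought with blast 2.17.0 (95% identity over 100 bp). As alternatives, DESeq2 1.42.0 replaced edgeR, RLE or upper-quartile factors replaced TMM, and 3919 genes of mitochondrial and small RNAs were left out of the scaling; others were no filter, a stricter filter, a replicate block, summed libraries, only the libraries compared, a threshold of 0.01, and leaving out each library. Depth of 15706407 to 19959183 counts per library sets the counting error. Figures were drawn with matplotlib 3.10.9.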

Additional observations from a re-analysis of the deposited data

Results flagged for a closer look

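The change of Cbx8 with the Tet2 label differed with the Id1 label, by a test of the difference itself. Its interaction was -0.54 on the log2 scale (edgeR adjusted p = 0.0128), from a change of 0.57 in Tet2KO against WT and of 0.03 in dKO against Id1KO. All 3 libraries labelled Tet2KO were above all 3 labelled WT, while those labelled dKO and Id1KO overlapped. Groups of 3 libraries were not searched for outlying values.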

How the results depend on the processing

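The calls of Cbx8 in Tet2KO against WT, of Bmi1 in Id1KO against WT and in dKO against Id1KO and of Ezh2 in dKO against WT held under every alternative tried except summed libraries, which do not cover dKO against WT. The Cbx8 interaction held except at a threshold of 0.01. The other 8 member calls were each lost in at least 2 of the 12 fits that left out a library. The scaling alternatives shifted the median of all genes by at most 0.007 on the log2 scale. Taking the comparisons with WT first (Tet2KO, Id1KO, dKO), then dKO against Tet2KO, against Id1KO, and the interaction, a threshold of 0.01 gave 3122, 1085, 1557, 2285, 1599 and 972 genes. From the second comparison on, DESeq2 gave 1231, 1640, 2513, 1689 and 1180. Summed libraries gave 566 genes for the Tet2 label (69.8% higher) and 38 for the Id1 label (23.7% higher), and 0 members, where 1 or 2 had an unadjusted p under 0.05.

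Members called in Tet2KO against WT were 1 with DESeq2, without a filter or at 0.01, and 1 to 4 leaving out a library. In Id1KO against WT they were 2 without a filter or with only the libraries compared, and 1 to 4 leaving out a library. In dKO against WT they were 1 with DESeq2 or at 0.01. In dKO against Tet2KO they were 1 with DESeq2, 0 at 0.01, and 1 to 6 leaving out a library. In the interaction they were 0 at 0.01 and 1 to 2 leaving out a library. Of the wider list, DESeq2 called 2 in dKO against Tet2KO, 6 in dKO against Id1KO and 4 in the interaction. Rybp turned from 0.12 in Tet2KO against WT to -0.026 in summed libraries, where the additive fit averages its 2 Tet2 contrasts (0.12 and -0.17).

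Replicate numbers did not pair the libraries: deviations of same-numbered libraries correlated at -0.097 to 0.113 and of others at -0.104 to 0.174. A replicate block gave 4523, 1952, 2565, 3592, 2576 and 1871 genes and 2, 1, 2, 5, 1 and 1 members, and Ezh2 in dKO against Tet2KO was the 1 member call it moved (adjusted p = 0.0517). Of the other calls the report gives, it lost those of E2f6 (0.0548) and Hmga2 (0.0564) there, of Rybp in Tet2KO against WT (0.0521) and of Phf1 in the interaction (0.0559). This leaves aside the calls of Bcor, Mbd5 and Mbd6 in dKO against Id1KO and of Fbrs in Tet2KO against WT. Depth limits genes with few counts, Cbx7 and Cbx8 among the members.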
